A study of Mus musculus with 24 samples.

Results

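Smyd3, a lysine methyltransferase with a SET and a MYND domain, was mapped on the chromatin of mouse livers, and 8353 of its 27324 peaks (30.6%) are described here. They are the intergenic peaks outside H3K4me3. Each lay more than 1000 bp from every annotated gene start, overlapped no span of a protein-coding gene, and shared no base with a region enriched for H3K4me3 in the same kind of liver. The other Smyd3 peaks were 11301 that overlapped H3K4me3 (41.4%), 5425 inside protein-coding genes away from starts (19.9%) and 2245 within 1000 bp of a start without H3K4me3 (8.22%). All coordinates are on mouse build mm9.

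The chromatin came from livers of mice labelled C57BL6/CBA at 8.5 months of age that had received a single intraperitoneal dose of 25 mg/kg diethylnitrosamine (DEN), a hepatotoxic agent used to bring on liver cancer in mice. Smyd3 was precipitated from 2 such wild type mice with a rabbit antiserum made by the submitters against the full-length protein. H3K4me3 was precipitated with a commercial antibody from 2 DEN-treated Smyd3 knockout mice and 2 DEN-treated wild type mice. RNA was sequenced from 3 mice in each of 4 groups: DEN-treated knockout (DEN_KO), DEN-treated wild type (DEN_WT), untreated knockout (KO) and untreated wild type (WT), all of that strain label and age. Knockout mice carry a gene-trap cassette within intron 5 of Smyd3 in all tissues, so transcripts of the exons ahead of it remain possible, and the sex of the mice is not given. There is 1 region list per antibody and genotype, so counts of regions have no replicate error and no test. The samples include no Smyd3 precipitation from knockout liver, so the specificity of the antiserum at these peaks could not be checked that way. In the RNA table Smyd3 read 12, 3 and 8 in DEN_KO against 57, 71 and 74 in DEN_WT, and 29, 17 and 22 in KO against 79, 89 and 59 in WT. No KO library reached a WT library, and the drop was past the threshold with DEN (log2 fold change -3.13 ± 0.41 SE, limma adjusted p = 0.00018) but not without it (-1.71 ± 0.41, adjusted p = 0.065).

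Regulatory DNA lies both at gene starts and far from them. Active starts carry histone H3 trimethylated at lysine 4, whereas enhancers, which act over distance on the starts they contact, usually carry little of that mark and are bound by the transcription factors of the tissue. Smyd3 was first described as a methyltransferase of H3K4, has since been reported to act on other proteins as well, and was reported to recognise the DNA motif CCCTCC. A peak outside H3K4me3 and away from genes therefore marks a place where the antiserum enriched chromatin without the mark at starts.

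The bases under the peaks were not read, since no genome of the build of the peaks was used here. For 1 of the peaks the results turn on, the start of the nearest gene is shown instead, as the 250 bases before it in RefSeq on GRCm38.p6, 5′ to 3′ on the strand of the gene. Hamp (chr7:30944030-30944279 on GRCm38.p6, - strand) has a wide peak behind the gene, 1929 bp downstream of its start. The bases shown are on the other side of the start and do not lie under that peak. Capitals mark CCCTCC or its reverse complement GGAGGG.
Hamp: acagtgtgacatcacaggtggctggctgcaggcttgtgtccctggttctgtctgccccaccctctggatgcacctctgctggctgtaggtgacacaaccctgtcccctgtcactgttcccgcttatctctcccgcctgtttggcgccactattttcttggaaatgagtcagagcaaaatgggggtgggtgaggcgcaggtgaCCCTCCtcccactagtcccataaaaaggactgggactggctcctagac
The stretch held 1 copy of the motif, on the strand of the gene. For comparison, 35.2% of the 32851 mouse promoter entries of that table held it on either strand in the same 250 bases. The motif was searched as these letters only, on both strands, and a match is a description of the letters in this window.

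The intergenic peaks lay at widely spread distances from gene starts. Their median distance to the nearest gene start of any kind was 43921 bp, and to the nearest protein-coding start 101016 bp. Only 580 (6.94%) lay within 5 kb of a start, 3033 (36.3%) lay between 10 and 50 kb, 2259 (27.0%) between 100 and 500 kb and 202 (2.42%) beyond 500 kb. Counting protein-coding starts alone, 1196 peaks (14.3%) lay beyond 500 kb. Smyd3 peaks inside genes, the class closest to them in that it also lacks H3K4me3, had a median of 17032 bp to a start of any kind. The rule sets the lower end of these distances, and the classes are compared as a description. At that limit, the members nearest to it lay 1008 bp from Rab3a, 1009 bp from Gm10524 and 1025 bp from Esrp1, and the nearest peaks left out lay 992 bp from Gm11115, 988 bp from Vmn1r48 and 987 bp from AC144794.1. Between 1 and 2 kb there were 164 members.

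**Figure D1:**
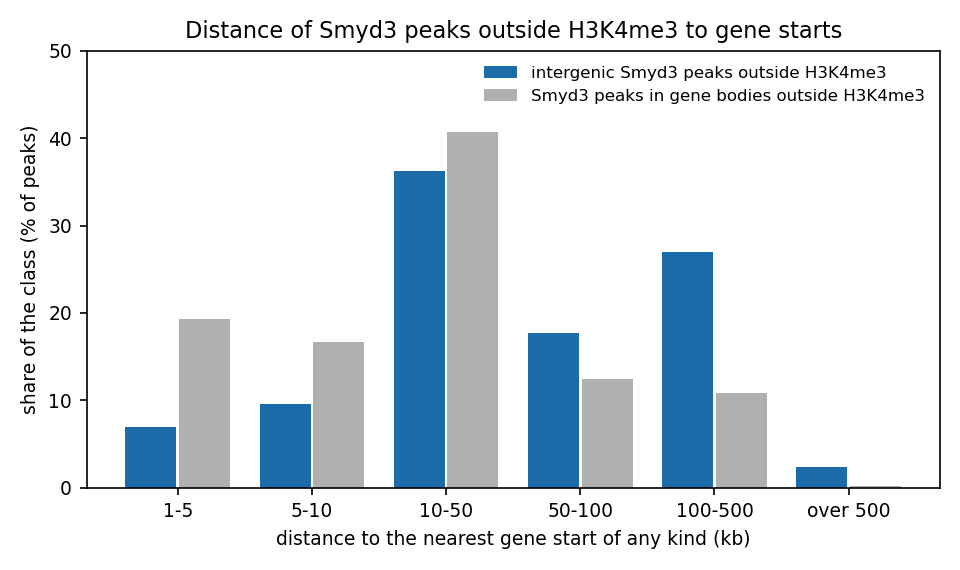
Share of each class of Smyd3 peaks (y axis, % of the peaks of that class) by distance to the nearest gene start of any kind (x axis, kb), for the 8353 intergenic peaks and the 5425 peaks inside protein-coding genes, both outside H3K4me3. The intergenic peaks have 27.0% between 100 and 500 kb and the peaks inside genes 10.8%.

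The intergenic peaks were narrow. Their widths ran from 181 to 4711 bp with a median of 641 bp and quartiles of 500 and 831 bp. The median was 646 bp for peaks inside genes, 729 bp for peaks at starts without H3K4me3 and 974 bp for peaks overlapping H3K4me3. Width is the one measure of size the list carries, since its score is 0 in every line. The 5 widest members are given with their nearest protein-coding gene. A pair of 4711 bp (chr1:173000193-173004903) and 4609 bp (chr1:173007820-173012428) lay 5127 and 12754 bp from the start of Fcgr3, an Fc receptor for IgG. The next were 4519 bp wide, 26539 bp from the pheromone receptor gene Vmn1r77, 4197 bp wide, 10375 bp from the major urinary protein gene Mup18, and 3934 bp wide, 16139 bp from Gm2128. Reads from near-identical copies cannot always be placed, and how the authors treated such reads is not given in the sources used here.

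Chromosome X carried the highest share of intergenic peaks among the chromosomes with more than 100 Smyd3 peaks. Of its 1244 Smyd3 peaks 726 (58.4%) were of this class and 299 (24.0%) overlapped H3K4me3. Chromosome 3 followed with 580 of 1408 (41.2%). The lowest shares were on chromosome 11, with 286 of 1817 (15.7%), and chromosome 19, with 149 of 781 (19.1%). Gene-rich chromosomes had lower shares: X held 5.58 protein-coding genes per Mb, chromosome 3 held 6.64, and chromosomes 11 and 19 held 13.6 and 11.8. The rule leaves out peaks in protein-coding genes and near starts, so this relation follows at least in part from the rule and is a description. Chromosome 7, also at 13.6, had 24.8%. Chromosomes 18 and 12, at 5.70 and 5.81 genes per Mb, had 34.0% and 34.2%, so X stood above chromosomes of like density. Per Mb of sequence, X had 4.36 members, and the autosomes had between 2.35 (chromosome 11) and 3.67 (chromosome 6). Chromosome Y held 14 members among 17 Smyd3 peaks.

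**Figure D2:**
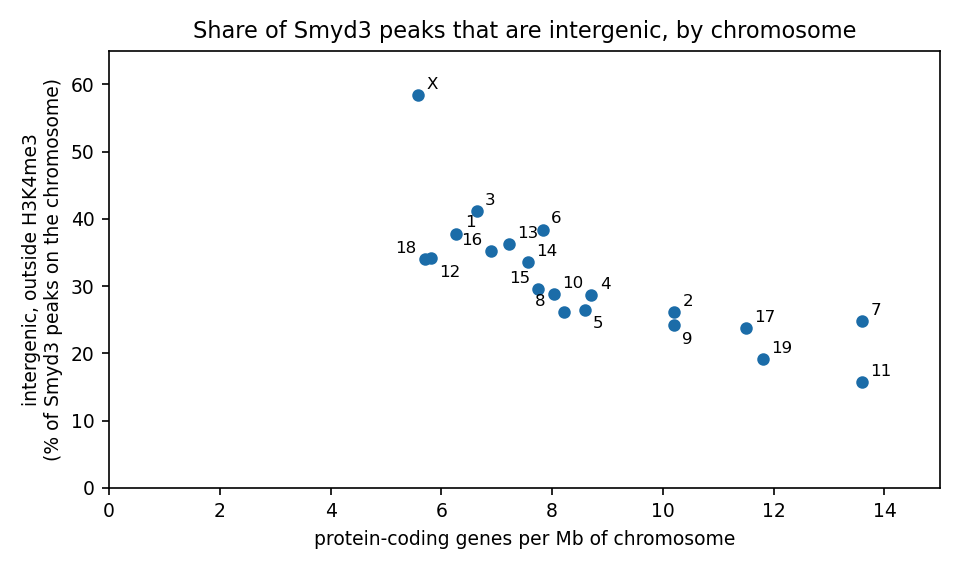
Each point is a chromosome, placed by its protein-coding genes per Mb (x axis) and by the share of its Smyd3 peaks that are intergenic and outside H3K4me3 (y axis, %), with Y left out for its 17 peaks. X, at 58.4%, lies above every autosome, and chromosome 11, at 15.7%, lies lowest.

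One stretch of chromosome 6 held an array of evenly spaced peaks. Between Hrh1, a histamine receptor gene, and Atg7, which encodes the E1-like enzyme of autophagosome formation, 44 intergenic Smyd3 peaks stood within 144.3 kb (chr6:114442923-114587191), 0.527% of all members. With neighbours joined up to a gap of 10 kb they form a run of 35 and a run of 9, which are 14.1 kb apart. Of the other runs the largest held 5 peaks, and 7015 members had no other member within 10 kb. Neighbouring centres in the array were 2493 bp apart at the median. Of the 43 spacings, 28 fell between 2200 and 2700 bp and another 5 between 4400 and 5400 bp. These bounds were set after the spacings had been seen. Among the 8288 neighbouring spacings of the other members, 29 (0.350%) fell between 2200 and 2700 bp and the median was 150906.5 bp. The array was picked for its close peaks while most other members stand alone, so a low share among the others was set in advance. The array peaks were 254 to 1544 bp wide, with a median of 781.0 bp. None of the 44 overlapped H3K4me3 in the knockout either. Whether the sequence below repeats at this interval was not tested.

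**Figure D3:**
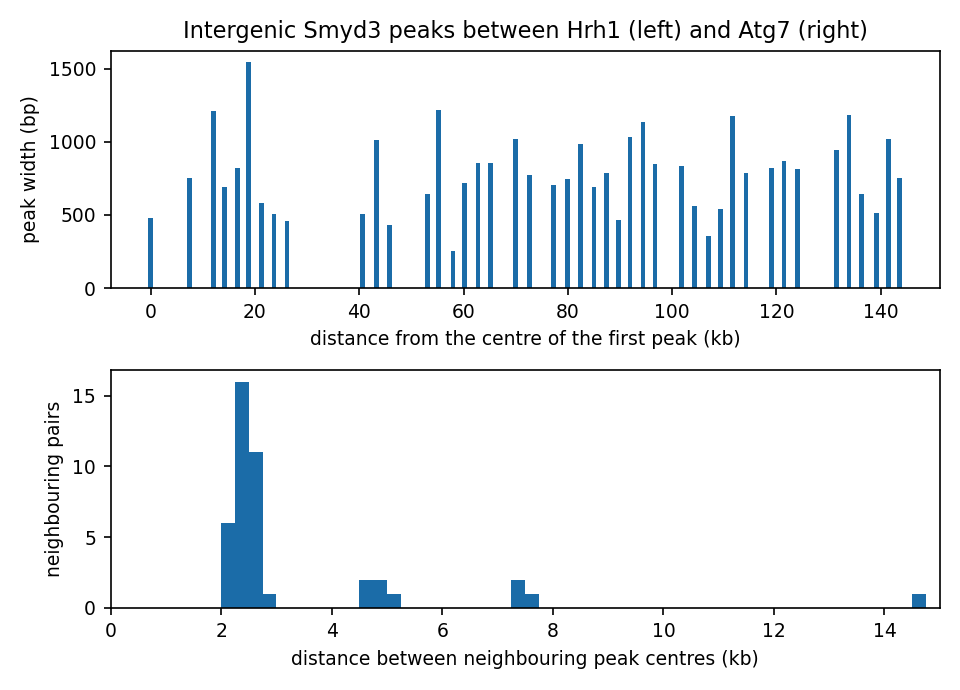
Upper panel: the 44 intergenic Smyd3 peaks of the array, each a bar at its distance from the centre of the first peak (x axis, kb) with its width as height (y axis, bp). Lower panel: number of neighbouring pairs (y axis) by the distance between their centres (x axis, kb), with most pairs near 2.5 kb and a smaller group near 5 kb.

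Atg7 was higher in DEN_KO than in DEN_WT. It read 867, 760 and 887 in DEN_KO against 303, 160 and 312 in DEN_WT, and 868, 718 and 648 in KO against 347, 415 and 528 in WT. The groups did not overlap in either pair. Means were 838 ± 68.3 in DEN_KO and 258.3 ± 85.3 in DEN_WT (SD, n = 3 each). In limma the log2 fold change ± SE, on log2(value + 1), was 1.75 ± 0.24 in DEN_KO against DEN_WT (adjusted p = 0.00026) and -0.77 ± 0.24 in DEN_WT against WT (adjusted p = 0.029). In KO against WT it was 0.80 ± 0.24 with an adjusted p of 0.14, which is not past the threshold of 0.05. The start of Atg7 lay 5958 bp from the last array peak and had a Smyd3 peak with H3K4me3 of its own. Hrh1, on the other side, read 2 to 4 in DEN_KO, 1 to 13 in DEN_WT, 2 to 6 in KO and 1 to 5 in WT and was not tested. Within 1 Mb of the array 18 genes were tested. Apart from Atg7, the one past the threshold in DEN_KO against DEN_WT was Vhl, the substrate receptor that marks hypoxia-inducible factors for breakdown (286, 301 and 331 in DEN_KO against 441, 557 and 592 in DEN_WT, -0.78 ± 0.16, adjusted p = 0.0028). Vgll4, the next gene beyond Atg7, read 892, 429 and 604 in DEN_KO against 539, 611 and 663 in DEN_WT (0.03 ± 0.25, adjusted p = 0.94).

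Another dense stretch lay behind Cebpb, which encodes a liver transcription factor of the acute phase and of regeneration. The 243.1 kb between the starts of Cebpb and Ptpn1, a tyrosine phosphatase gene, held 12 intergenic Smyd3 peaks, from 5.6 to 211.3 kb after the Cebpb start. Among fixed windows of 250 kb, the one that holds them (chr2:167500001-167750000) had the most members outside chromosome 6, 12 of its 15 Smyd3 peaks. Their median width was 705.5 bp and none overlapped H3K4me3 in the knockout. Among the 12, 2 lay in the lincRNA gene A530013C23Rik and 2 in the lincRNA gene 1200007C13Rik. Another 4 Smyd3 peaks, which overlapped wild type H3K4me3, lay between Cebpb and Ptpn1. Cebpb read 3346, 2248 and 2821 in DEN_KO against 1404, 549 and 642 in DEN_WT, and the groups did not overlap. The log2 fold change was 1.81 ± 0.32 (adjusted p = 0.00099), against 0.17 ± 0.32 in KO against WT (adjusted p = 0.83). Ptpn1 read 706, 730 and 824 in DEN_KO against 1264, 1031 and 1133 in DEN_WT (-0.60 ± 0.15, adjusted p = 0.0087). None of the 12 was linked to Cebpb, since those within 50 kb of it had another protein-coding start nearer. To Ptpn1 2 were linked. This stretch and its genes were chosen after their values had been seen.

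A run of 5 peaks stood upstream of Ttr, the gene of the thyroxine and retinol carrier transthyretin. The run spanned 13.88 kb (chr18:20773872-20787752), between 35999 and 47367 bp from the Ttr start, with widths from 428 to 2513 bp. Ttr read 179066, 125224 and 115439 in DEN_KO against 37286, 44929 and 49742 in DEN_WT, and 42412, 46132 and 70529 in KO against 77129, 46067 and 47377 in WT. It was higher in DEN_KO than in DEN_WT in every library (1.65 ± 0.32, adjusted p = 0.0017), whereas the KO and WT libraries overlapped (-0.10 ± 0.32, adjusted p = 0.91). The run of 5 beside Psd2, a guanine nucleotide exchange factor gene, included 2 peaks over knockout H3K4me3. Psd2 read at most 3 in DEN_KO and 2 in DEN_WT and was not tested, as was BC107364, which had 4 peaks and at most 4 reads in any library.

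The H3K4me3 list of the knockout was the larger. It held 17491 regions over 32.85 Mb in DEN-treated knockout livers, against 15579 regions over 26.94 Mb in DEN-treated wild type livers. Of the 8353 intergenic peaks, which by rule lack the mark in wild type, 375 (4.49%) overlapped a knockout region. The share was 3.26% of peaks inside genes and 13.4% of peaks at starts without H3K4me3. Turned round, 337 of the 4127 knockout regions without a wild type counterpart held an intergenic Smyd3 peak (8.17%). Of the 375 peaks, 26 lay on a knockout region that also reached a wild type one, so there the knockout region only extended further. The 375 were closer to protein-coding starts than the others, with a median distance of 67573 bp against 102909 bp, and 8.53% against 3.55% lay within 5 kb of one. With a single list per genotype, a gain of the mark cannot be told apart from a list that was called more deeply.

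The 5 widest peaks over knockout H3K4me3 are given with their nearest protein-coding gene. The widest, 2224 bp (chr6:47600114-47602337), lay 54774 bp from Ezh2, the H3K27 methyltransferase. Next came a peak of 1989 bp behind Hamp (chr7:31725119-31727107), 1929 bp from its start and 149 bp from a wild type H3K4me3 region. Others of 1832, 1823 and 1741 bp lay 43470 bp from Suclg1, a succinyl-CoA ligase gene, 23332 bp from Tmem64 and 6527 bp from Onecut2, a homeobox factor gene. Hamp encodes hepcidin, the liver hormone that limits iron uptake. It read 13072, 5857 and 6170 in DEN_KO against 4311, 1949 and 1686 in DEN_WT, and 9107, 11057 and 10970 in KO against 26605, 18823 and 18040 in WT. In DEN_KO it was higher than in DEN_WT (1.69 ± 0.35, adjusted p = 0.0029) and in DEN_WT lower than in WT (-3.11 ± 0.35, adjusted p = 4.1e-05). In KO against WT the groups did not overlap either, in the other direction (-1.01 ± 0.35, adjusted p = 0.2).

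Linking each peak to the nearest protein-coding start within 50 kb tied 2925 intergenic peaks (35.0%) to 2433 genes. Most of these genes, 2040, had 1 peak, 319 had 2 and 74 had 3 or more. Nearness does not show which gene a peak acts on. Among the linked genes 786 (32.3%) had a Smyd3 peak with H3K4me3 at their own start, against 44.2% of all 22369 protein-coding genes, and 207 were at 0 in every library. A value of 10 or more in 3 or more libraries, the filter for testing, was reached by 1280 linked genes (52.6%), against 62.5% of all protein-coding genes. Receptor genes of the nose were often linked and seldom tested: 156 of 1113 olfactory receptor genes (14.0%) and 89 of 323 vomeronasal receptor genes (27.6%) were linked, against 10.9% of all protein-coding genes. Among the linked ones 2 vomeronasal and 0 olfactory receptor genes were tested, and 17 and 20 were at 0 in every library. These families were picked after the linked genes had been seen.

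Linked genes were called at shares near the background. Of the 1280 tested, 191 were higher in DEN_KO (14.9%) and 282 lower (22.0%), beside 16.4% higher and 17.4% lower of all 16471 genes tested and 14.6% and 19.5% of protein-coding genes. Their median log2 fold change was -0.12, against -0.11 for all protein-coding genes. In DEN_WT against WT 256 were higher (20.0%) and 186 lower (14.5%), beside 16.1% and 13.5% of all genes tested and 18.2% and 13.4% of protein-coding genes. In KO against WT 9 were higher (0.703%) and 11 lower (0.859%), beside 0.546% and 0.613%. These last counts moved with single libraries: 14 higher and 25 lower were called without KO replicate 3, 2 and 2 without KO replicate 1, 4 and 2 without KO replicate 2, and 4 and 3 without WT replicate 2. Without WT replicates 1 and 3 in turn, 6 and 7 were lower. The lower count in DEN_WT against WT was 121 without WT replicate 2. The replicates are numbered mice, so the p-values measure the spread between animals, and in whole liver fewer cells of a type and less RNA per cell cannot be told apart.

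The split changed with what stood at the gene's own start. Among 754 linked genes tested with Smyd3 and H3K4me3 there, 87 were higher in DEN_KO (11.5%) and 188 lower (24.9%). Among 526 linked genes tested without that pair, 104 were higher (19.8%) and 94 lower (17.9%). Genes with no linked peak had 14.2% higher and 20.4% lower with the pair at their start, and 15.4% and 16.6% without it. In DEN_WT against WT, 21.6% of linked genes with the pair were higher and 12.2% lower, against 17.7% and 17.9% of those without. The filter on low values passed 95.9% of the linked genes with the pair and 31.9% of those without, so the second set is the smaller, expressed part of its genes. Nearness made no steady trend: with the nearest peak 1 to 5 kb away 11.0% were higher in DEN_KO, with 5 to 10 kb 20.5% and with 10 to 50 kb 14.3%. Linked genes whose peak lay over knockout H3K4me3 had 14 of 96 higher (14.6%) and 20 lower (20.8%). None of these differences was tested.

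**Figure D4:**
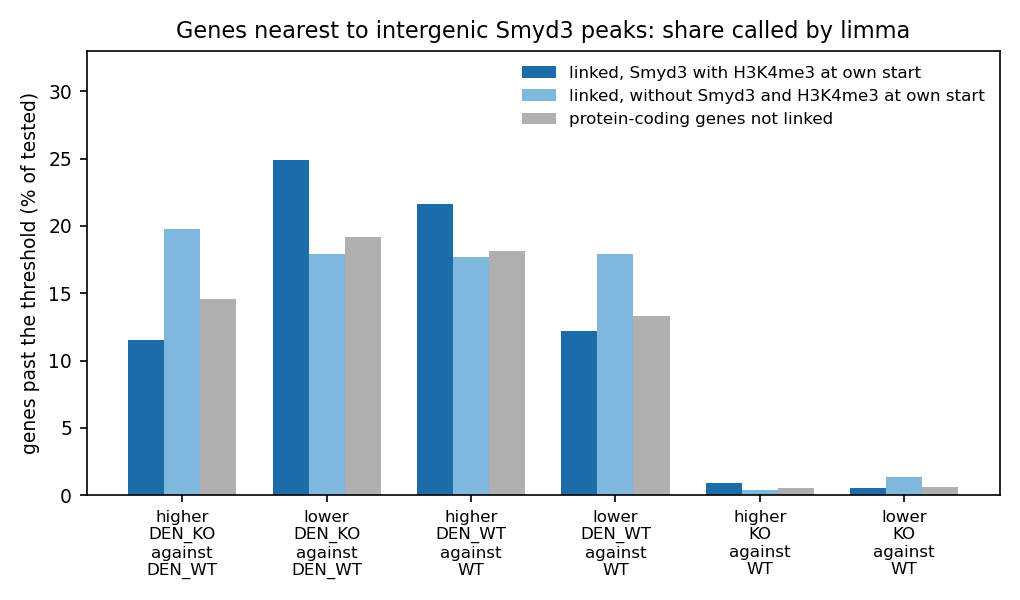
Share of tested genes past the threshold (y axis, %) in each direction of 3 comparisons (x axis), for genes linked to an intergenic Smyd3 peak with Smyd3 and H3K4me3 at their own start, linked genes without that pair, and protein-coding genes with no linked peak. In DEN_KO against DEN_WT the first set has 24.9% lower and 11.5% higher, and the second 17.9% lower and 19.8% higher.

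Metabolic genes of the hepatocyte beside intergenic Smyd3 peaks were higher in DEN_KO than in DEN_WT. All 6 linked genes of a list of 20 for drug and bile acid metabolism rose in DEN_KO against DEN_WT and all 6 fell in DEN_WT against WT. The same DEN_WT libraries stand in both comparisons, so the opposite directions are not separate results. Over all genes tested 16.4% rose in the first comparison and 13.5% fell in the second. This list and those below were chosen with earlier results of these data known, so their counts are descriptions. The median log2 fold change of the 6 linked genes in DEN_KO against DEN_WT was 1.58, against -0.06 for all genes tested. Of the 14 listed genes with no such peak 11 rose and 0 fell in DEN_KO, with a median of 1.42, so the list moved with and without a peak. Cyp2e1, an ethanol and nitrosamine oxidase, has 1 peak 12840 bp upstream. It read 131842, 82292 and 112643 in DEN_KO against 46023, 11828 and 34714 in DEN_WT, with no overlap (2.00 ± 0.44, adjusted p = 0.0038, and 1.42 without DEN_WT replicate 2), and 163206, 167783 and 185534 in KO against 176179, 234001 and 201620 in WT. Slco1b2, a hepatic uptake transporter for organic anions, has peaks 45020 and 46539 bp upstream, 1 of them over knockout H3K4me3. It read 21113, 15620 and 17323 in DEN_KO against 7414, 2417 and 6431 in DEN_WT (1.88 ± 0.34, adjusted p = 0.0013).

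The other 4 members of that list were of both kinds, enzymes and regulators of bile acid flow. Cyp2c29, a cytochrome P450 with a peak 16014 bp upstream, rose by 1.99 ± 0.43 (adjusted p = 0.0033), and Cyp3a11, a main drug-oxidising P450 with a peak 42793 bp upstream, by 1.29 ± 0.36 (adjusted p = 0.014). Nr0b2, the nuclear receptor that restrains bile acid synthesis, has 2 peaks behind it and read 1560, 1577 and 1465 in DEN_KO against 758, 401 and 810 in DEN_WT (1.29 ± 0.28, adjusted p = 0.0038). Abcb11, the bile salt export pump, read 11196, 7488 and 10614 in DEN_KO against 7551, 4773 and 5467 in DEN_WT, and the groups overlapped (0.72 ± 0.22, adjusted p = 0.022). Over the whole P450 family 17 linked genes were tested, of which 10 rose and 0 fell in DEN_KO against DEN_WT, beside 32 and 5 of 63 with no linked peak. The shares of all genes tested were 16.4% and 17.4%. With quantile normalization 8 of the 17 rose, and Abcb11 and Cyp3a11 lost their calls (0.36 and 0.83). Both also lost them without DEN_WT replicate 2 (0.58 and 1.01) or DEN_KO replicate 1 (0.62 and 1.00), and Abcb11 without DEN_WT replicate 3 (0.68) or DEN_KO replicate 3 (0.65).

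The major urinary protein genes, which encode pheromone carriers made in the liver, had the highest linked share of the 8 families counted, which were picked after the linked genes had been seen. Of 21 genes 11 were linked (52.4%), against 10.9% of all protein-coding genes, and Mup19 alone had 5 peaks. All 11 were higher in DEN_KO than in DEN_WT (median log2 fold change 2.75) and lower in DEN_WT than in WT (median -3.67), as were 9 of the 10 Mup genes with no linked peak in each comparison. The shares of all genes tested were 16.4% and 13.5%. Both comparisons use the same DEN_WT libraries, so their opposite directions are not separate results. Mup11 read 58318, 103724 and 82122 in DEN_KO against 17694, 1676 and 15181 in DEN_WT, and 147970, 102008 and 179547 in KO against 110231, 280571 and 142952 in WT. Its log2 fold change was 3.37 ± 0.70 in DEN_KO against DEN_WT (adjusted p = 0.0029) and -4.42 ± 0.70 in DEN_WT against WT (adjusted p = 0.00049). Mup18, Mup14 and Mup7 rose in DEN_KO by 3.15, 3.13 and 3.09. DEN_WT replicate 2 was the lowest library for all 4, and without it Mup11 was 2.27, Mup18 2.07, Mup14 2.14 and Mup7 1.85. Without DEN_WT replicate 1, Mup11 was 3.97 and Mup7 3.82. The copies are near identical, so counts for a single Mup gene are uncertain and the genes do not give separate evidence.

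Fetal and tumour-linked genes beside intergenic peaks went the other way. All 5 linked genes of a list of 24 oncofetal and tumour markers fell in DEN_KO against DEN_WT and all 5 rose in DEN_WT against WT. Here too the DEN_WT libraries are shared, so the opposite directions are not separate results. Over all genes tested 17.4% fell in the first comparison and 16.1% rose in the second. The list was chosen with earlier results of these data known, so the counts are a description. The median of the 5 linked genes was -3.41 in DEN_KO against DEN_WT, and 11 of 18 listed genes with no linked peak fell and 0 rose. Gpc3, a cell-surface proteoglycan of liver cancer, has a peak 47800 bp upstream on X. It read 153, 146 and 113 in DEN_KO against 2224, 3385 and 2704 in DEN_WT, and 53, 59 and 18 in KO against 18, 26 and 18 in WT. The fold change was -4.32 ± 0.37 in DEN_KO against DEN_WT (adjusted p = 2.8e-05). Igf2bp3, an RNA-binding protein of fetal tissue with a peak 2700 bp upstream, read 4, 3 and 0 in DEN_KO against 83, 38 and 17 in DEN_WT. It reached the filter through the 3 DEN_WT libraries alone, so its place among the 5 follows from the filter.

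Prom1, a surface marker of progenitor cells, has 3 peaks, 1 over knockout H3K4me3. It read 29, 73 and 35 in DEN_KO against 250, 1019 and 374 in DEN_WT (-3.41 ± 0.49, adjusted p = 0.00031). Scd2, a desaturase of fetal liver, read 1313, 2036 and 921 in DEN_KO against 6282, 7666 and 6688 in DEN_WT, and 74 to 127 in KO against 83 to 113 in WT. DEN_KO thus stood below DEN_WT and far above the untreated groups (-2.34 ± 0.27 in DEN_KO against DEN_WT, adjusted p = 8.8e-05). Cdk1, the kinase that drives mitosis, read 63, 50 and 44 in DEN_KO against 70, 264 and 98 in DEN_WT (-1.22 ± 0.43, adjusted p = 0.042). Its call rested on single libraries: it was lost without any one of DEN_KO replicates 1 to 3 or DEN_WT replicates 2 and 3 (-0.67 without DEN_WT replicate 2). Over 13 alternatives the adjusted p ran from 0.014 to 0.2.

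Genes that earlier work on Smyd3 tied to growth and invasion were partly changed. Of 10 linked members of a list of 29, 5 fell and 0 rose in DEN_KO against DEN_WT, and 6 rose and 0 fell in DEN_WT against WT. As above, the comparisons share the DEN_WT libraries and are not separate results. Over all genes tested 17.4% fell and 16.4% rose in the first comparison, and 16.1% rose and 13.5% fell in the second. Of 18 listed genes with no linked peak 6 fell and 0 rose in DEN_KO. Ccnd1, the cyclin of entry into the cell cycle, has peaks 1154 and 2384 bp upstream (chr7:152126928-152127929 and chr7:152128158-152129566), the nearer over knockout H3K4me3. It read 457, 1180 and 527 in DEN_KO against 2384, 1886 and 1760 in DEN_WT (-1.60 ± 0.37, adjusted p = 0.0057), and 311, 390 and 310 in KO against 557, 300 and 186 in WT. Ccne1, the next cyclin of that entry, has 3 peaks, 2 over knockout H3K4me3. It read 37, 114 and 59 in DEN_KO against 174, 377 and 236 in DEN_WT (-1.97 ± 0.38, adjusted p = 0.0018). Myc, the growth-promoting transcription factor, has a peak 31109 bp downstream of its start, and read 77, 177 and 110 in DEN_KO against 439, 394 and 302 in DEN_WT (-1.70 ± 0.33, adjusted p = 0.0021).

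Vim and Birc5 completed the 5. Vim, an intermediate filament protein of mesenchymal cells, read 473, 375 and 392 in DEN_KO against 1726, 951 and 964 in DEN_WT (-1.50 ± 0.28, adjusted p = 0.0013). Birc5, the inhibitor of cell death survivin, read 42, 70 and 88 in DEN_KO against 131, 284 and 87 in DEN_WT, and the groups overlapped (-1.20 ± 0.43, adjusted p = 0.043, from 0.019 to 0.2 over 13 alternatives). The Birc5 call was lost without DEN_KO replicate 1 or 2 (-0.91 and -1.27) or DEN_WT replicate 1 or 2 (-1.29 and -0.73). The other 5 were not past the threshold, although Socs3 and Twist1 were without DEN_KO replicate 3 (-1.43 and -2.64), and Socs3 without DEN_WT replicate 2 (-1.33). They were Socs3, the feedback inhibitor of cytokine signalling with 3 peaks (-1.10 ± 0.41, adjusted p = 0.051), Twist1, a factor of mesenchymal change (-1.85 ± 0.68, adjusted p = 0.051), the cytokine receptor chain Il6st (0.27), and Snai2 and Snai1, factors of the same kind as Twist1 (-0.23 and -0.02).

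Hepatocyte identity genes were mixed beside their peaks. Of 5 linked and tested, 1 rose in DEN_KO against DEN_WT, Ttr, and 0 fell. Over all genes tested 16.4% rose and 17.4% fell, so 1 of 5 is near that share. Of 26 listed genes with no linked peak 7 rose and 2 fell. Foxa1, a pioneer factor of liver enhancers with a peak over knockout H3K4me3, read 231, 298 and 412 in DEN_KO against 222, 548 and 408 in DEN_WT (-0.27 ± 0.33, adjusted p = 0.56). Onecut1, a hepatocyte transcription factor with a peak 6948 bp away, read 79, 294 and 250 in DEN_KO against 152, 190 and 57 in DEN_WT (0.60 ± 0.67, adjusted p = 0.52), and fell in DEN_WT against WT (-2.38 ± 0.67, adjusted p = 0.017). Fgg, a fibrinogen chain with 3 peaks, read 62431, 65058 and 58110 in DEN_KO against 81475, 78896 and 74735 in DEN_WT. Those groups did not overlap, and the change was -0.34 ± 0.24 with an adjusted p of 0.29 (-0.89 and past the threshold with quantile normalization). Serpina1a, an abundant antiprotease, read 306797, 188503 and 174082 in DEN_KO against 242177, 537101 and 425879 in DEN_WT (-0.82 ± 0.59, adjusted p = 0.3).

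Acute phase and early response genes did not move together. Of 5 linked and tested, 1 rose in DEN_KO against DEN_WT, Hamp, and 1 fell, Btg2, an antiproliferative gene with 2 peaks behind its start. Both counts are near the shares of all genes tested, 16.4% higher and 17.4% lower. Btg2 read 480, 689 and 275 in DEN_KO against 3228, 3652 and 2590 in DEN_WT, and 317, 320 and 329 in KO against 182, 193 and 198 in WT. Its groups overlapped in neither pair (-2.79 ± 0.26, adjusted p = 3.6e-05 in DEN_KO against DEN_WT, and 0.75 ± 0.26, adjusted p = 0.19 in KO against WT). Gadd45b, a stress response gene, had 3 peaks, the nearest 1037 bp from its start and over knockout H3K4me3. It read 48, 120 and 38 in DEN_KO against 32, 38 and 58 in DEN_WT (0.54 ± 0.57, adjusted p = 0.49). Crp, the C-reactive protein (0.10), and Fosb, an AP-1 subunit (-0.51), were not past the threshold either. Of 16 listed genes with no linked peak 2 rose and 5 fell.

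Few markers of other liver cells were called in DEN_KO against DEN_WT. Of 22 such markers 2 were linked: Ly6g, a neutrophil marker at 0 to 2 in every library and not tested, and Col1a1, a fibrillar collagen of stellate cells with 2 peaks. Col1a1 read 44, 113 and 72 in DEN_KO against 908, 230 and 199 in DEN_WT (-2.27 ± 0.51, adjusted p = 0.0048). Without DEN_WT replicate 1 it was -1.58. Of 19 tested markers with no linked peak, 1 rose and 3 fell in DEN_KO against DEN_WT, beside 16.4% and 17.4% of all genes tested. The 21 markers in the table summed to 9653 to 10931 in DEN_KO, 7648 to 13651 in DEN_WT, 7030 to 7451 in KO and 6319 to 6411 in WT, and Ly6g alone was at 0 in every library of a group, in KO. Hepatocyte markers were high throughout, with Alb at 904165 to 1607401 in DEN_KO, 2081265 to 3386204 in DEN_WT, 1168760 to 1989612 in KO and 1277821 to 1549787 in WT. They did not move alike between the DEN groups. Apoa1 and Fgb were, like Alb, lower in every DEN_KO library than in DEN_WT. Apoa2 and Ttr were higher, and Trf and Serpina1a overlapped. The part of cell makeup in the values above was not tested. No insulator or cohesin gene of a list of 10 was linked.

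**Figure D5:**
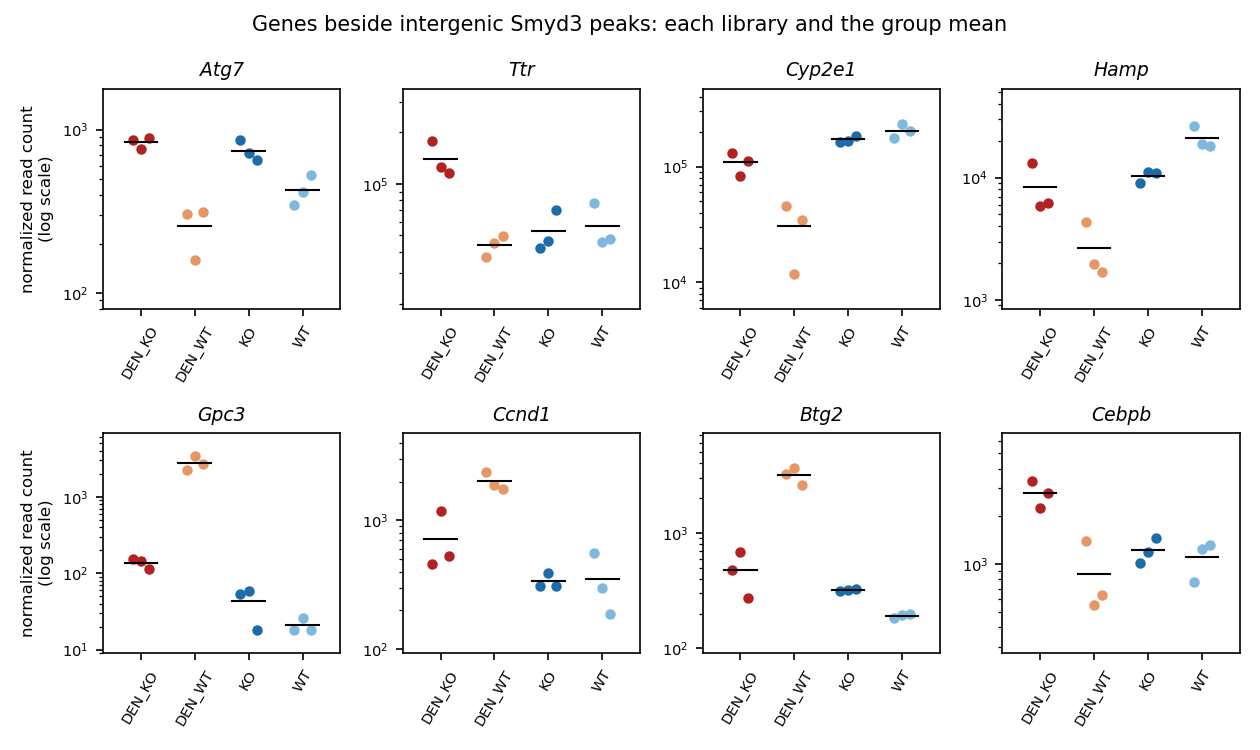
Normalized read count (y axis, log scale) of 8 genes beside intergenic Smyd3 peaks in each of 3 libraries per group (points) with the group mean (line), for DEN_KO, DEN_WT, KO and WT (x axis). Atg7, Ttr, Cyp2e1, Hamp and Cebpb are higher in all 3 DEN_KO libraries than in all 3 DEN_WT libraries, and Gpc3, Ccnd1 and Btg2 are lower. Cebpb is shown for the peaks behind it and was not linked to any of them by the nearest start.

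The largest changes among linked genes include several low or unusual ones. The highest in DEN_KO against DEN_WT, 2310057J18Rik, read 20, 291 and 43 in DEN_KO, 0, 2 and 0 in DEN_WT, 0 in each KO library and 2, 2 and 0 in WT. It reached the filter of 10 through the 3 DEN_KO libraries alone, so it had to differ, and its fold is not given. It has 1 peak, 43728 bp away and over knockout H3K4me3. Gm16416, with a peak 3594 bp away, read 31, 42 and 34 in DEN_KO and 1 to 14 in the 9 other libraries (3.22 ± 0.65, adjusted p = 0.0025). It would have missed the filter without the DEN_KO libraries, so its call follows in part from the filter. Crygn, a lens crystallin gene with 2 peaks upstream, read 141, 84 and 183 in DEN_KO against 16, 12 and 12 in DEN_WT (3.20 ± 0.51, adjusted p = 0.00056). Ntrk2, the receptor of the neurotrophin BDNF, read 1181, 666 and 987 in DEN_KO against 227, 53 and 104 in DEN_WT (3.08 ± 0.53, adjusted p = 0.00087). The Mup genes above made up the rest of the 8 highest.

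The lowest was Vmn2r3, a vomeronasal receptor gene, which read 2, 3 and 0 in DEN_KO against 968, 1271 and 90 in DEN_WT, 2, 0 and 0 in KO and 0, 0 and 2 in WT. It reached the filter through the 3 DEN_WT libraries alone, so it had to differ, and its fold is not given. Kdelr3, a receptor that returns proteins to the endoplasmic reticulum, has a peak 4345 bp upstream and read 4, 21 and 4 in DEN_KO against 109, 314 and 164 in DEN_WT (-4.45 ± 0.61, adjusted p = 0.00024, and -5.16 without DEN_KO replicate 2). Chrm3, a muscarinic acetylcholine receptor, read 5, 7 and 18 in DEN_KO against 206, 130 and 198 in DEN_WT (-4.18 ± 0.44, adjusted p = 5.9e-05). The DEN_KO libraries of these 3 genes overlapped those of KO. Kdelr3, and Slc24a3 below, would have missed the filter without their DEN_WT libraries, so their calls follow in part from the filter. Mmp13, a collagenase, changed by -3.96 ± 0.90 (adjusted p = 0.0048, and -3.30 and -4.80 without DEN_KO replicates 1 and 2), and Slc24a3, a sodium and calcium exchanger with 2 peaks, by -3.83 ± 0.54 (adjusted p = 0.00027).

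Dct, an enzyme of melanin synthesis with a peak 5045 bp away, differed from those. It read 2, 1 and 1 in DEN_KO against 66, 9 and 65 in DEN_WT, and 3, 1 and 0 in KO against 85, 188 and 208 in WT. It was thus past the threshold with DEN (-3.95 ± 0.72, adjusted p = 0.0013) and without it (-6.23 ± 0.72, adjusted p = 0.0012). Without DEN_WT replicate 2 the first of these was -4.86. Dct would have missed the filter without its WT libraries, so the second call follows in part from the filter. It is 1 of the 20 linked genes called in KO against WT, where no mouse had received DEN. Among the others, which were chosen after their values had been seen, Abcb1b, a drug efflux pump with a peak 1302 bp from its start, read 163, 147 and 125 in KO against 27, 16 and 25 in WT (2.65 ± 0.36, adjusted p = 0.0029). It also rose in DEN_KO (184, 73 and 87, against 50, 29 and 47 in DEN_WT, 1.35, adjusted p = 0.011). Tgfbr2, a receptor chain for TGF-beta, read 314, 352 and 326 in KO against 851, 674 and 567 in WT (-1.06 ± 0.22, adjusted p = 0.038) and 586, 1048 and 560 in DEN_KO against 2259, 2287 and 2326 in DEN_WT (-1.71, adjusted p = 0.00017).

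Some of the intergenic peaks lay inside noncoding genes. The rule removes only spans of protein-coding genes, and 308 peaks (3.69%) stood in noncoding spans: 201 in 153 lincRNA genes, 46 in 38 pseudogenes and 40 in 28 antisense genes, with the remaining ones in other kinds. Of 232 such noncoding genes 40 were tested, and 6 of the 40 were higher and 2 lower (5.00%) in DEN_KO against DEN_WT, beside 16.4% and 17.4% of all genes tested. In DEN_WT against WT 3 were higher (7.50%) and 7 lower (17.5%), beside 16.1% and 13.5%. In KO against WT 0 were higher and 1 lower (2.50%), beside 0.546% and 0.613%. Neat1, the RNA that builds paraspeckles, held 1 peak and read 7450, 15821 and 7826 in DEN_KO against 19466, 19303 and 14086 in DEN_WT, and the groups overlapped (-0.84 ± 0.26, adjusted p = 0.023). The lincRNA gene 0610005C13Rik read 4164, 4855 and 5812 in DEN_KO against 2639, 2038 and 2466 in DEN_WT (1.05 ± 0.17, adjusted p = 0.00056). The lincRNA genes 1600020E01Rik and 1810058I24Rik rose by 1.68 ± 0.26 and 0.98 ± 0.23 (adjusted p = 0.00045 and 0.0059).

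The pseudogene Gm15710 held the most, 6 peaks, over a span that also covers coding genes. It read 1618, 1629 and 1503 in DEN_KO against 454, 478 and 646 in DEN_WT, and 480, 541 and 537 in KO against 811, 440 and 378 in WT (1.60 ± 0.24, adjusted p = 0.00038). The use of strand in counting is not given, so its reads cannot be told apart from those of genes it overlaps. The others called were the pseudogene 9930005F22Rik and the lincRNA gene BC028777, which rose by 1.98 and 1.90 at values of at most 20, and the pseudogene Pcdhb20, at -1.33. Each would have missed the filter without the DEN group where it is higher, so these calls follow in part from the filter. Pvt1, the noncoding neighbour of Myc, held 2 peaks and read 54, 78 and 75 in DEN_KO against 82, 73 and 63 in DEN_WT (-0.08 ± 0.23, adjusted p = 0.8). Gm12836, a pseudogene, read 1, 0 and 0 in KO against 106, 43 and 25 in WT, the one call in KO against WT (-5.30 ± 0.89, adjusted p = 0.012). Gm12836 would have missed the filter on low values without its WT libraries, so its call follows in part from the filter.

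Interactions of knockout and DEN were about as common among linked genes as among all genes. The interaction, the knockout effect with DEN minus that without, was past the threshold in either direction for 92 linked genes above 0 and 123 below 0 of 1280 (7.19% and 9.61%), beside 16.6% of all genes tested in both directions together. For Gpc3 the knockout effect was -4.32 with DEN and 0.89 without, an interaction of -5.20 ± 0.52 (adjusted p = 0.00048). For Hamp it was 1.69 with DEN and -1.01 without, an interaction of 2.70 ± 0.50 (adjusted p = 0.0043). For Atg7 the effects were 1.75 and 0.80, and the interaction of 0.95 ± 0.35 was not past the threshold (adjusted p = 0.076).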

How the data were processed

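Livers of 8.5-month-old mice were profiled by RNA sequencing and chromatin precipitation. Per the labels' protocols, bead-purified mRNA was read on Ion Proton chips. The submitters' processing notes name build mm9 and the tools TopHat2 2.0.9, Bowtie2, cutadapt, DESeq and Cufflinks, with no role for any. Neither the peak caller nor the counting tool nor the use of strand is given in the sources used here. The authors deposited 1 region list per antibody and genotype, with a score of 0 in every line, and whether the 2 replicates were pooled or merged is not stated. In the RNA table deposited by the authors each value is a score, the read count of a gene scaled by library and then rounded. Its values summed to 22320634 to 28973396 per library, and every value of the 12 libraries' own files was equal to it. The closest replicates had a chi-square of 33 per degree of freedom between them, so each was counted as a separate sample. Counting intervals are not given, since the values are scaled.

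Overlap meant at least 1 bp, and a gene start is the start of a + strand gene or the end of a - strand gene in the RNA table. Interval code was checked on made-up regions. The 16471 of 37583 genes that reached 10 in 3 or more libraries were tested with limma 3.58.1 (R 4.3.3) on log2(value + 1) in a single fit of 4 groups with 8 residual degrees of freedom, a trend and Benjamini-Hochberg adjustment over all genes tested, at a threshold of 0.05. The fit was tested on simulated data. The log2(value + 1) scale understates changes of low genes, and an exact permutation test of 3 against 3 cannot go below 0.1. Members and gene lists were chosen with earlier results of these data known. Genes named are the 8 highest and 8 lowest linked genes past the threshold in DEN_KO against DEN_WT, the 5 with most peaks, listed linked genes and tested noncoding genes holding a peak. Regions named are the 5 widest, the 5 widest over knockout H3K4me3, the largest runs and those linked to listed genes. Motif shares under the peaks had been planned and were not computed, since no mm9 genome was used here. RNA polymerase II and input libraries were not analysed here. Other settings tried are the pseudocount, the filter, TMM factors, quantile normalization, each library left out, a replicate block, a fit of only the groups compared, the link distance and the overlap rules.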

Additional observations from a re-analysis of the deposited data

Results flagged for a closer look

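For 27 of the 48 named genes tested the knockout effect with DEN differed from that without it, by the interaction term of the limma fit with Benjamini-Hochberg adjustment over all genes tested. The values below are log2, the effect in DEN_KO against DEN_WT minus the effect in KO against WT. Of the 27, 13 were named for the size of their change in DEN_KO against DEN_WT, which is part of the interaction, so the count of 27 is a description. Over all genes tested 16.6% had an interaction past the threshold. The interaction was above 0 for 15 of the 27. It was 3.60 for Mup11, 3.38 for Mup18, 3.38 for Mup14 and 3.41 for Mup7, whose copies share reads. It was 2.21 for Cyp2c29, 2.24 for Cyp2e1 and 1.78 for Cyp3a11, 2.05 for the transporter Slco1b2, 1.32 for the nuclear receptor Nr0b2, 2.70 for hepcidin (Hamp) and 1.75 for transthyretin (Ttr). It was also 6.54 for 2310057J18Rik, 3.02 for Gm16416, 2.44 for Crygn and 2.49 for Ntrk2.

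The interaction was below 0 for the other 12. It was -5.20 for Gpc3, -2.73 for Prom1 and -2.44 for Scd2, -2.51 for Myc, -2.02 for Ccne1 and -1.69 for Ccnd1, -3.55 for Btg2 and -2.64 for Col1a1. It was -7.72 for Vmn2r3, -4.04 for Kdelr3, -2.71 for Chrm3 and -3.99 for Slc24a3. The 2 effects of each interaction rest on separate libraries. Of these genes, 2310057J18Rik and Vmn2r3 reached the filter on low values through 1 group alone. Both therefore had to differ, and the size of their interactions is not given. Gm16416, Kdelr3 and Slc24a3 would have missed it without the group where they are high, so their interactions follow in part from the filter.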

How the results depend on the processing

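The number of intergenic peaks, 8353, ran from 7773 to 8594 under other distances, gene spans and overlap rules, and was 2521 when peaks narrower than the median of all Smyd3 peaks were left out. The share over knockout H3K4me3, 4.49%, was 4.99% when only peaks covered to 50% by wild type H3K4me3 were removed, 3.22% when 50% of a peak had to be covered, and 5.77% with a knockout region within 1000 bp. A link within 10 kb tied fewer genes, and 59 linked genes were then higher and 72 lower in DEN_KO against DEN_WT, 79 and 63 in DEN_WT against WT, and 2 and 4 in KO against WT. In KO against WT, a fit of those groups alone called 5 higher, and quantile normalization called 5 lower; the cause was not tested.

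Leaving out 1 library at a time gave 142 to 185 higher and 204 to 248 lower in DEN_KO against DEN_WT, 204 to 228 higher and 121 to 156 lower in DEN_WT against WT, and 2 to 14 higher and 2 to 25 lower in KO against WT. Of 48 named genes tested, 36 were past the threshold in DEN_KO against DEN_WT, and 31 to 35 were with 1 library left out. Over 614 values of named genes, 577 kept their direction and their side of the threshold, 23 lost the call, in Cdk1, Birc5, Abcb11 and Cyp3a11, and 5 gained it, in Socs3, Twist1 and Fgg. Another 9 changed sign, each for a gene not past the threshold: Crp was -0.24 with quantile normalization and -0.12 without DEN_WT replicate 2, Foxa1 was 0.02 without DEN_WT replicate 2, and Snai2 was 0.07 without DEN_WT replicate 3 and 0.00 without DEN_KO replicate 2. Snai1 was 0.00 with TMM factors, 0.06 with quantile normalization, 0.24 without DEN_WT replicate 1 and 0.06 without DEN_KO replicate 3. With 1 library left out, Crp ran from -0.12 to 0.25, Foxa1 from -0.63 to 0.02, Snai2 from -0.67 to 0.07 and Snai1 from -0.24 to 0.24. Without DEN_WT replicate 2, Cyp2e1 was 1.42 in place of 2.00.

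Mice that share a replicate number did not deviate together: 1 of 18 same-numbered pairs had a correlation over 0.1, in a range of -0.0996 to 0.12, and pairs of other numbers ran from -0.152 to 0.132. With the replicate block 187 linked genes were higher and 267 lower in DEN_KO against DEN_WT, 252 and 166 in DEN_WT against WT, 7 and 14 in KO against WT, and 36 named genes were past the threshold. The median log2 fold change of all genes tested in DEN_KO against DEN_WT was -0.0552 as deposited, -0.0325 with TMM factors and -0.0286 with quantile normalization. The peak lists carry no height, so the depth behind a peak is unknown.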
